A study of Mus musculus with 8 samples.

Results

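The 7 chaperone genes described here are Hsp90ab1, Hsp90b1, Hspa5, Hspb6, Hspb7, Cryab and Bag1, and every m6A peak that carries the Entrez ID of one of them was taken, 19 of the 581 peaks in the 2 deposited tables. N6-methyladenosine (m6A) is adenosine of RNA with a methyl group on its base, and MeRIP-seq locates it by sequencing RNA fragments pulled down with an antibody against m6A beside an input that skipped the pulldown. The libraries came from left ventricle of wild-type C57BL/6 mice, taken 1 week after surgery. Hearts were sham-operated, infarcted (MI, myocardial infarction), infarcted and labelled aavgnp, or infarcted and labelled aavFto, with 1 input and 1 MeRIP library for each, 8 in all. Infarction is thus shared by both vector groups, and the labels expand neither vector name. It was assumed that aavFto carried Fto, which encodes an enzyme that removes m6A, and that aavgnp served as its control. The labels name no promoter for the vector, and do not say how many hearts went into a library. The genes were picked by name, with earlier results of these data known. That all 7 have a listed peak in both tables is therefore not a result about chaperones. Of 74 other genes of protein folding, 2 had a listed peak after MI and 9 with aavFto.

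Chaperones hold other proteins in a foldable state, and the heart, whose muscle proteins are under constant mechanical load, keeps several of them abundant. HSP90 and HSP70 proteins bind and release clients in cycles driven by ATP. Small heat shock proteins bind unfolding clients without ATP, and in muscle they gather at the Z-disc and along titin and desmin. BAG proteins are co-chaperones that make HSP70 let go of its client.

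The authors' values were used as deposited. The fold enrichment is taken as the MeRIP signal of a peak over input (which libraries it combines is not stated), the log2 change is the difference between the 2 groups of a table, and the false discovery rate (FDR) belongs to that change, while the enrichment p rates the peak itself. The log2 change was read as MI over sham and as aavFto over aavgnp. The headers do not state this sign, and under the other reading all directions of that table would be reversed. With 1 library of each kind per group there is no replicate check on any difference below, and the deposited p-values compare libraries and not conditions. Signal per library was not analysed here, and the depth of each library is unknown. A change in methylation, a change in transcript level and a change in the cell types of the tissue cannot be told apart in these values.

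After MI each of the 7 genes had 1 listed peak, and all 7 changes were positive, from 1.02 in Cryab to 2.91 in Hsp90ab1 in the authors' deposited table. None passed an FDR of 0.05, against a background of 14.7% of all 116 listed peaks in either direction, and none had an unadjusted p under 0.05 (25.9% of all listed peaks). A positive sign was also the rule in that table, where 84.5% of listed peaks were positive. The members' median of 1.61 lay below the 1.92 of all listed peaks. The table lists no peak with an absolute change under 1.01, so 100% of its peaks, members or not, have a log2 change of at least 1 in size.

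With aavFto the same 7 genes had 12 listed peaks, 6 positive and 6 negative, against 32.7% positive among all 465 listed peaks of that table. Their median was -0.11, beside -0.61 over all listed peaks. No member peak passed the FDR (background 1.72% in either direction). A single one, in Hsp90ab1, had an unadjusted p under 0.05, which 4.3% of all listed peaks had. A log2 change of at least 1 in size was found at 5 of the 12, against 28.2% of all listed peaks. Of these 5, 4 were positive and 1 negative. Over all listed peaks 131 had such a change, 55 positive (11.8% of all 465) and 76 negative (16.3% of all 465).

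**Figure D1:**
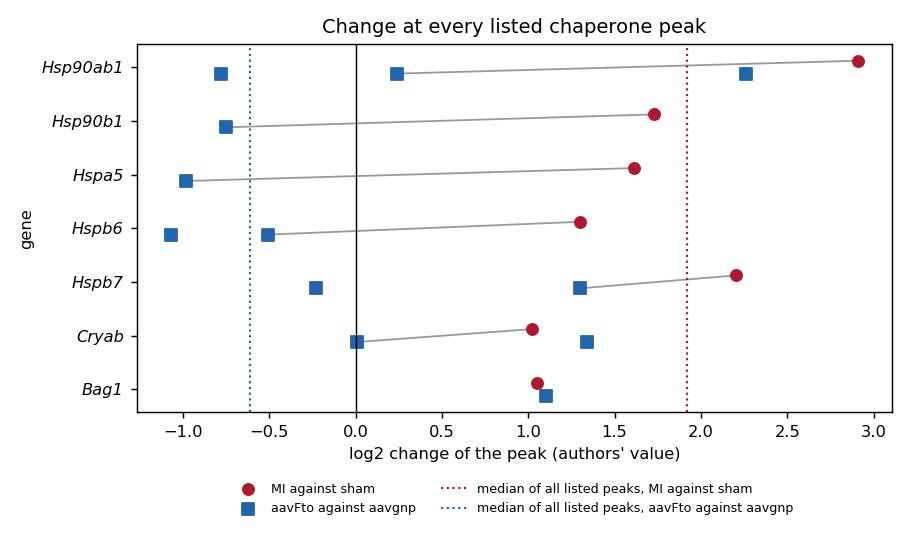
Log2 change (horizontal axis, the authors' value) at each listed peak of the 7 genes (rows), with circles for MI against sham and squares for aavFto against aavgnp. Grey lines join peaks of the 2 tables that overlap, and dotted lines mark the medians of all listed peaks, 1.92 and -0.61. All 7 circles are above 0, while the squares run from -1.07 in Hspb6 to 2.26 in Hsp90ab1.

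Each of the 7 MI peaks overlapped a peak of the aavFto table on the same strand by at least 1 bp, as did 94% of all 116 MI peaks. The reverse share was 7 of 12 member peaks with aavFto (58.3%), against 20.9% of all 465. These 2 shares are not alike, since every member has an MI peak. The aavFto peaks came from 271 genes and the MI peaks from only 77, so many genes of the background had no MI peak to overlap. The blocks were identical in Hsp90ab1 and Hspa5, 2 of the 6 identical pairs in the whole series. The 2 tables share no library. The changes of overlapping peaks are given side by side below without a comparison, since the first table holds no change under 1.01 in size and the second does.

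Hsp90ab1, the constitutive cytosolic HSP90, spans chr17:45567778-45573261 on the minus strand (mm10, 5484 nt). Its peak at chr17:45568329-45568538 is 210 nt long in a single block and ends 551 nt short of the 3′ end of the gene span. After MI the authors' deposited table gave that peak a fold enrichment of 38.3 and a change of 2.91 (unadjusted p 0.074, FDR 0.43), the largest among the members. For the same 210 nt with aavFto, the authors' deposited table gave a fold enrichment of 52.3 and a change of 0.24 (FDR 0.71). The most 3′ peak, chr17:45567987-45568076, is 90 nt long and was listed with aavFto only, where the authors' deposited table placed it at -0.78 (FDR 0.71).

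The third peak of Hsp90ab1 lies in the middle of the gene, at chr17:45569804-45570752, over blocks of 23, 309 and 87 nt. With aavFto the authors' deposited table gave it a fold enrichment of 91.5 and a change of 2.26, with an unadjusted p of 0.015 and an FDR of 0.6. By that p it was number 12 of 465 listed peaks. The 3 peaks of this gene thus ran from -0.78 to 2.26, a range of 3.04 on the log2 scale, the widest among the 4 members with more than 1 peak. Hsp90aa1, the stress-induced cytosolic HSP90, is a close paralog with no listed peak in either table, and short reads of the pair could be shared, so the values of Hsp90ab1 are uncertain to that extent.

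**Figure D2:**
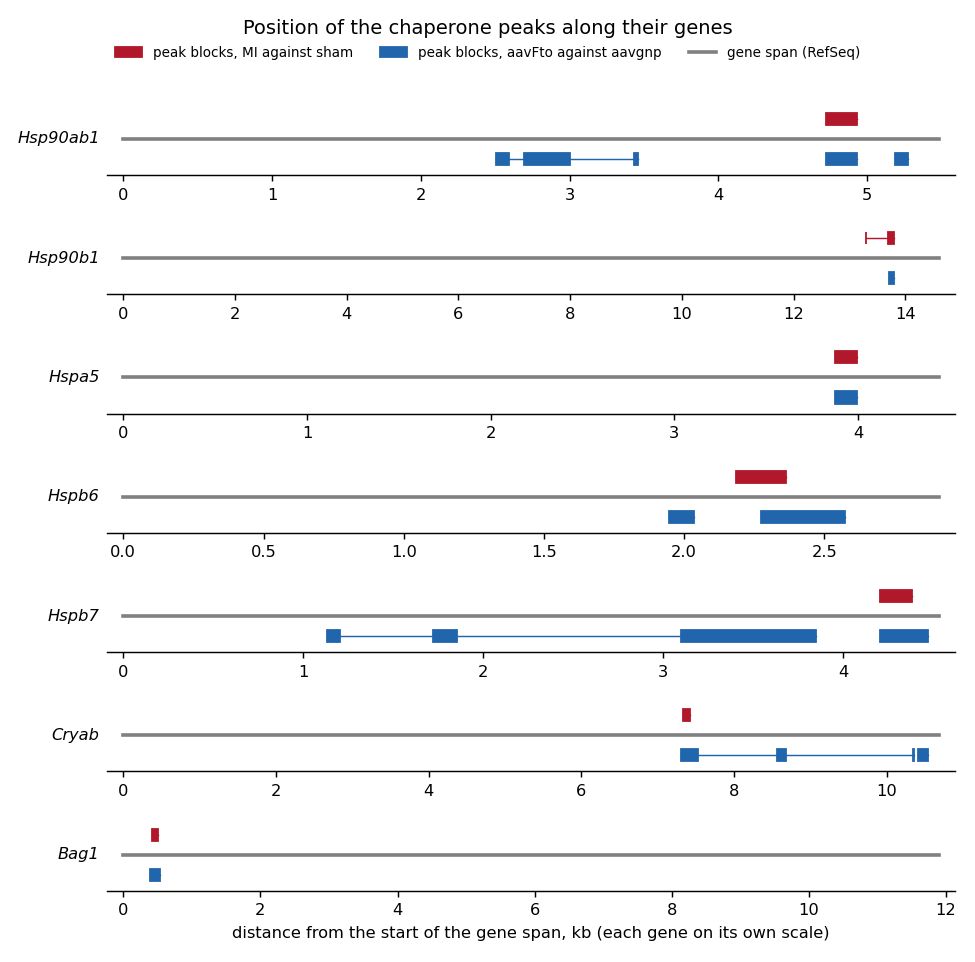
Blocks of the member peaks (boxes joined by thin lines) along each gene, as distance in kb from the start of the RefSeq gene span, with MI against sham above the grey gene line and aavFto against aavgnp under it. Each gene has its own scale. The 2 tables mark overlapping stretches in all 7 genes, and Bag1 alone has its peaks at the start of the gene.

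Hspa5 and Hsp90b1 encode BiP and GRP94, the HSP70 and the HSP90 of the endoplasmic reticulum, which fold secreted and membrane proteins. Both are classic targets of the unfolded protein response. The Hspa5 peak at chr2:34775964-34776083 has the same 120 nt in both tables and ends 446 nt before the 3′ end of the gene (chr2:34772090-34776529). Its fold enrichment was 65.4 with a change of 1.61 (FDR 0.74) after MI, and 73.8 with a change of -0.98 (FDR 0.71) with aavFto, in the authors' deposited tables. The peak is on the plus strand and lies inside the span of Rabepk, a gene of the other strand. The labels do not say whether reads were counted by strand, so reads of the 2 genes may not be separated.

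Hsp90b1 spans chr10:86690841-86705444 on the minus strand. Its MI peak has 2 blocks, of 108 and 13 nt, and the aavFto peak is the 91 nt at chr10:86691641-86691731 inside the larger one, 800 nt from the 3′ end. The authors' deposited table for MI gave a fold enrichment of 72.9 and a change of 1.73 (FDR 0.74). The authors' deposited table for aavFto gave 22.8 and -0.75 (FDR 0.71) for these quantities. The log2 changes of the ER pair were thus of one sign in each table, positive after MI and negative with aavFto, as most listed peaks were there, and none passed the threshold. Their fold enrichments were alike after MI but not with aavFto.

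To show the known site through which the unfolded protein response acts on this pair, the promoters were searched for the ER stress element in the 250 bases before the gene start (RefSeq, GRCm38.p6, the same assembly as mm10). The letters searched, on both strands, were CCAAT and CCACG with any 9 bases between them. Hspa5 has 1 match, 65 to 47 bases before its start, and Hsp90b1 has 2, at 212 to 194 and, on the opposite strand, at 107 to 89. The matches are printed 5′ to 3′ along the gene's strand with 5 bases on either side, and capitals mark the fixed letters of the element:
Hspa5, chr2:34772020-34772048, plus strand: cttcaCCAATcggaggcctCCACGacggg
Hsp90b1, chr10:86705633-86705661, minus strand: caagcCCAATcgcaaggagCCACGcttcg
Hsp90b1, chr10:86705528-86705556, minus strand: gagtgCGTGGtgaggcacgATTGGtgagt
A match is expected in these textbook targets whatever the m6A values, and it does not bear on them. One was found in 0.113% of all 32851 promoter windows of that length, and in 2 of the 5 members with a window. The heat shock element, searched on both strands as GAA, TTC and GAA with any 2 bases between neighbours, matched in none of those 5 and in 0.466% of all windows. Hsp90ab1 and Cryab had no window, so neither element was searched in them. No member peak reaches a promoter window, and a match of letters does not show that a factor bound there.

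Hspb7, Hspb6 and Cryab encode small heat shock proteins. Hspb7, the cardiovascular small heat shock protein, spans chr4:141420779-141425310 on the plus strand. Its 3′ peak starts at chr4:141424983 in both tables, and is 179 nt long after MI and 268 nt long with aavFto. The authors' deposited table gave it a fold enrichment of 86.4 and a change of 2.20 (FDR 0.74) after MI. With aavFto the authors' deposited table gave 72.6 and 1.30 (FDR 0.71) for these quantities.

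Hspb7 also had the strongest member peak of either table, at chr4:141421910-141424626, with 953 nt in blocks of 71, 134 and 748 nt. Its enrichment log10 p was -11.7 and its fold enrichment 108.0 in the authors' deposited table for aavFto. The change there was -0.23 (FDR 0.71), while the 3′ peak of the same transcript was at 1.30 in the authors' deposited table. The 2 peaks of this gene with aavFto thus differed by 1.53 on the log2 scale, with no test of that difference.

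Hspb6, or Hsp20, is a small heat shock protein of muscle, at chr7:30552535-30555443 on the plus strand. Its span overlaps those of Gm38670 and of Lin37, a gene of the other strand, so reads may not be separated where they overlap. The MI peak, chr7:30554719-30554899, was given a fold enrichment of 70.8 and a change of 1.30 in the authors' deposited table (FDR 0.74). With aavFto both of its peaks were negative, at -1.07 for chr7:30554480-30554570 and -0.51 for chr7:30554809-30555109 (FDR 0.71 for each) in the authors' deposited table. The MI peak shares 91 nt with the second of these, and its first 90 nt lie in the gap between them.

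Cryab encodes αB-crystallin, a partner of desmin and titin and one of the most abundant small heat shock proteins of heart muscle. Its span, chr9:50745951-50756636, overlaps that of Hspb2, another small heat shock gene, whose strand was not available here. The Cryab span also overlaps 2310030G06Rik, a gene of the other strand. Reads of these genes may not be separated where they overlap. The MI peak of Cryab, 90 nt at chr9:50753287-50753376, had a fold enrichment of 77.1 and, in the authors' deposited table, the smallest member change, 1.02 (FDR 0.74). With aavFto it lay inside a peak of 359 nt over 3 blocks (chr9:50753257-50756306), for which the authors' deposited table gave a fold enrichment of 89.0 and a change of 0.01 (FDR 0.71). A weak peak closer to the 3′ end, chr9:50756366-50756486, stood at 1.34 (FDR 0.71) with a fold enrichment of 18.3 in the authors' deposited table.

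Bag1, the co-chaperone, spans chr4:40936398-40948294 on the minus strand. It differed from the other 6 in position, with its peak 419 nt after the gene start in the MI table and 389 nt after it in the aavFto table. The peaks cover chr4:40947785-40947875 and chr4:40947755-40947905, of 91 and 151 nt. Their fold enrichments were low, 25.1 after MI and 22.0 with aavFto, and their changes were 1.05 (FDR 0.74) and 1.10 (FDR 0.71), in the authors' deposited tables. Bag1 and Hspb7 were the members whose peak overlapping the MI peak had a change of at least 1 with aavFto. Among all listed aavFto peaks, overlapping or not, 11.8% had such a change. The MI values add nothing to this, since all listed MI peaks have a change of at least 1 in size.

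Bag1 had its peaks near the gene start, and the long peaks of Hsp90ab1 and Hspb7 with aavFto were centred near the middle, at 54.4% and 54.9% of the gene span. The centre was in the last 20% of the gene span for 4 of 7 member peaks after MI (57.1%, against 59% of all peaks with a gene) and for 8 of 12 with aavFto (66.7%, against 53.2%). m6A is known to gather near stop codons and in 3′ untranslated regions, but exons and coding ends were not used here, so the peaks were not assigned to either. The gene span counts introns, and for Cryab it starts far before the first peak. Most member peaks were in a single block, 6 of 7 after MI and 9 of 12 with aavFto. Over all listed peaks 67 of 116 and 242 of 465 were. The median lengths of the member peaks were 121 nt after MI and 180 nt with aavFto, where the longest had 953 nt. Over all listed peaks the median lengths were 150 and 181 nt.

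The strength of a peak moved with its change in the aavFto table. Among all listed peaks there with an enrichment log10 p above -5, that is the weaker ones, 13.4% were positive with a median change of -0.82, and among the stronger ones 46.5% were positive with a median of -0.21. Of the members, 2 of 6 weaker peaks (Bag1 and the 3′ peak of Cryab) and 4 of 6 stronger peaks were positive, with medians of -0.63 and 0.13. After MI both weaker and all 5 stronger member peaks were positive, as were all 35 weaker listed peaks and 77.8% of the stronger ones. The part of peak strength in the changes was not tested.

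**Figure D3:**
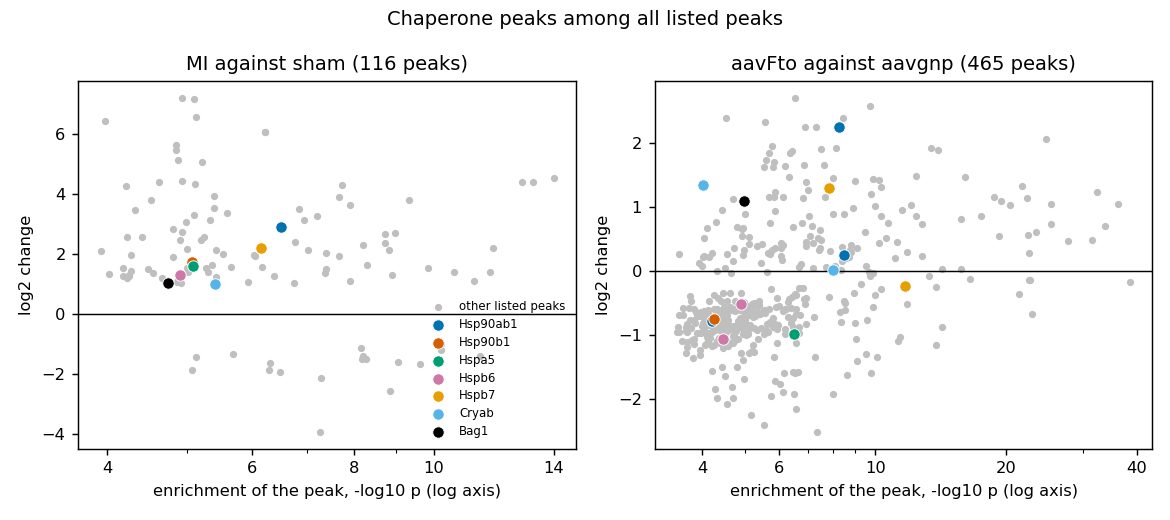
Log2 change (vertical axis) against the enrichment of each peak (horizontal axis, -log10 p on a log axis) for MI against sham (left, 116 peaks) and aavFto against aavgnp (right, 465 peaks), with the 7 genes in colour and other listed peaks in grey. In the right panel the weak member peaks of Hsp90b1, Hspb6 and Hsp90ab1 sit in the dense band of weak negative peaks, and the middle Hsp90ab1 peak is near the top at 2.26.

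Other genes of protein folding were looked up from a list of 74 chaperones, co-chaperones and close clients. After MI 2 of the 74 had a listed peak, Clu and Serpinh1. All 6 of their peaks were positive, as were 84.5% of all 116 listed peaks. None passed the FDR (background 14.7%), and 1, in Clu, had an unadjusted p under 0.05 (25.9% of all listed peaks). Their median was 3.53, beside 1.92 over all listed peaks. Clu, the extracellular chaperone clusterin, had 4 of these 6 peaks, from 2.04 to 4.39, in the authors' deposited table. Serpinh1, the collagen chaperone HSP47, had 3.94 and 4.28 in the authors' deposited table. Both genes are expressed by stromal cells as well. Of the fibroblast markers Col1a1, Col1a2, Col3a1, Postn, Dcn and Pdgfra, 4 were listed after MI and all 5 of their peaks were positive, with a median of 5.64. The listed macrophage markers (Apoe and Ctsd, 2 peaks) and endothelial markers (Cdh5 and Eng, 2 peaks) were also all positive. Their medians were 2.83 and 2.10. All 6 listed peaks of cardiomyocyte markers were negative. The part of cell make-up in the members' changes was not tested.

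With aavFto 9 of the 74 were listed, with 4 positive and 9 negative peaks, none past the FDR (background 1.72%). Over all listed peaks 67.3% were negative. The median of these genes' peaks was -0.62, beside -0.61 over all listed peaks. Several of the listed genes encode ER proteins. The lectin chaperone Canx was at -0.98, P4hb, a protein disulfide isomerase, at -0.98 and -0.68, and Calr, the lectin partner of Canx, at 0.77 and -0.62 in the authors' deposited table. Serpinh1, also an ER protein, was at -2.52 in the authors' deposited table. Together with Hspa5 and Hsp90b1, 7 of 8 peaks of these 6 ER genes were negative, against 67.3% of all listed peaks. This grouping was chosen after the values were seen and got no test. The fibroblast markers in this table had 11 negative peaks of 14, with a median of -0.60, close to the -0.61 of all listed peaks. Endothelial markers had 3 peaks, all negative, with a median of -0.60 too, and macrophage markers had 3 positive and 2 negative peaks.

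Of the muscle clients and co-chaperones, Des, the intermediate filament protein desmin, had a peak of 2083 nt with the strongest enrichment p of the list (by fold enrichment Clu was higher, at 142.0 against 109.0) and a change of 0.55 (unadjusted p 0.076) in the authors' deposited table for aavFto. Flnc, the Z-disc filamin, was at -2.16 and -0.90, and Bag3, the co-chaperone that works with HSPB8 on damaged filamin, at 0.25 and -0.55, in the authors' deposited table. Hspb8, a small heat shock protein named here after its value was seen, had a weak peak at 0.27 with a fold enrichment of 20.1 in the authors' deposited table. Clu was at -0.12 over 1573 nt in the authors' deposited table. Cardiomyocyte markers were all listed in this table, 10 of 10 with 19 peaks, of which 16 were positive with a median of 1.05, beside 3 of 10 with 6 negative peaks after MI. The part of muscle content in the members' changes was not tested.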

How the data were processed

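MeRIP and input libraries were made from left ventricle RNA, 200 µg per group and 1 library per group, per the labels' protocols. Per the submitters' processing notes, the aligner was STAR 2.5.3a and the build mm10. Not given in the sources used here are the peak caller, its thresholds and the scaling of libraries. Per the file headers, the deposited tables give each peak's blocks, a score that holds its enrichment p-value, the log10 of enrichment p and FDR, a linear fold (ratio) over input, the log2 change between groups and the log10 of the differential p and FDR. All p-values and FDRs printed are the authors' own, converted from log10. No test was computed, since no group has a replicate.

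Python 3.11.15 and pandas 2.3.3 were used. All 105 and 449 gene IDs matched RefSeq genes of GRCm38.p6 (mm10). Coordinates are 1-based. Peaks were called shared from 1 bp of overlapping blocks on the same strand. Overlap and counting steps were tested on simulated data. The members, lists and alternatives were chosen with earlier results of these data known. All members were named, with up to 8 genes of the chaperone list by strongest enrichment p. Hspb8 was named in addition, after its value was seen. Hsp90aa1 and Hspb2, on that list with no listed peak, were named as a paralog and an overlapping gene of members. Promoter sequences are RefSeq's, and 5 of 7 members had one. Sequences of the peaks were not analysed here. Alternatives covered thresholds, peak strength, 1 value a gene and overlap. Depth per library is unknown.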

Additional observations from a re-analysis of the deposited data

How the results depend on the processing

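No paired analysis was possible because every group has 1 library. After MI, 6 of the 7 alternatives for the count of positive peaks and the median left the same 7 values and so tested nothing, and stronger peaks only left 5, all positive, with a median of 1.73. Calls there stayed at 0 at an FDR of 0.1 and at an unadjusted p of 0.05, and an absolute log2 change of at least 1 called 7. With aavFto the calls went from 0 to 1 at an unadjusted p of 0.05 and to 5 at an absolute log2 change of at least 1. The aavFto median of -0.11 turned to 0.13 with stronger peaks only (enrichment log10 p of -5 or less) and to 0.53 with each gene's peaks averaged. It was -0.23 with the peak of strongest enrichment of each gene and -0.11 at an enrichment FDR of 0.01. Merging overlapping peaks left the same 12 peaks. The median thus has no settled sign. It was 1.10 with the largest change of each gene and 1.30 with changes of at least 1. These 2 settings pick peaks by the size of the change itself, so they cannot show how stable the median is. Positive values with aavFto were 6 of 12 peaks, 5 of 10 at an enrichment FDR of 0.01 and 4 of 6 with stronger peaks only. They were 3 of 7 genes when the peak of strongest enrichment stood for each gene, and 4 of 7 with each gene's peaks averaged. The 2 settings that pick by the size of the change gave 4 of 7 genes and 4 of 5 peaks. Peaks shared between the tables went from 7 to 2 when 90% of both peaks had to overlap. Depth per library is unknown, and its effect was not measured.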

Other observations

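Some member peaks of the aavFto table had exactly the same log2 change and differential p as a peak of another gene. This held for 3 of 12 member peaks, against 15.5% of all 465 listed peaks, and for none of the 116 peaks of the MI table. The authors' deposited table has Hspa5 and P4hb both at -0.98, the upstream Hspb6 peak and a Casq2 peak at -1.07, and the downstream Hspb6 peak and a Uqcrc1 peak at -0.51. How such ties arose was not tested.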
